A study of Mus musculus with 20 samples.

Results

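The ESC BAF complex is the SWI/SNF-type chromatin remodeller of embryonic stem cells (ESCs), and its transcripts were followed here in RNA immunoprecipitation sequencing (RIP-Seq) of Tet proteins. The 10 genes were taken from a fixed list of subunit names, Smarca4, Smarcc1, Smarcc2, Arid1a, Smarcd1, Smarcb1, Smarce1, Actl6a, Dpf2 and Brd7, out of 23284 genes in the data. All 10 were found, and all 10 passed the filter on low counts of the test described further on. In a RIP-Seq experiment, RNA recovered with an antibody (IP) is sequenced beside RNA that was not immunoprecipitated (input), and a higher share of a transcript in IP than in input is read as enrichment.

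The 20 libraries came from mouse ESCs grown on gelatin with serum and leukemia inhibitory factor. Every line carried a Flag, HA and Twin-Strep tag placed by CRISPR-Cas9n at the end of an endogenous Tet gene: Tet1 in Tet1-KI (2 IP and 2 input libraries), Tet2 in Tet2-KI (4 and 4), and Tet2 without its RNA-binding domain in Tet2dRBD-KI (4 and 4). The IP used an anti-Flag antibody and the input had none. Lines were picked clones, so that a difference between lines is also a difference between clones, and the methods describe IP from cytoplasmic extract and input from total RNA, so that antibody recovery and compartment cannot be told apart in any ratio of IP to input. Nothing in the labels says that replicates came from separate cultures, and p-values then measure only the spread between these samples.

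BAF slides and evicts nucleosomes with the energy of ATP. Its ATPase, Smarca4 (Brg1), sits on a core built on the scaffold proteins Smarcc1 (BAF155) and Smarcc2 (BAF170). The version in ESCs is known for using Smarca4 and Smarcc1 in place of their paralogues, and for acting beside pluripotency factors at enhancers. Arid1a and Dpf2 mark the canonical BAF assembly, whereas Brd7 is known from the related PBAF assembly, so the list holds 1 subunit that canonical BAF lacks.

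The library totals lay between 21.1 and 37.6 M expected counts, and the members had between 354 (Smarcc2) and 77309 (Smarca4) counts in a library. The 8 ESC markers were at 1 TPM or more in every input and summed to 13539 to 17340 TPM. TPM divides each count by transcript length and brings every library to the same sum, so that levels can be set against each other between genes. Of 6 primitive endoderm markers, the summed TPM ranged from 12.5 to 120 in Tet2 inputs, from 60.9 to 153 in Tet2dRBD inputs and from 46.5 to 48.3 in Tet1 inputs, highest in replicate 1 of both Tet2 lines, and trophectoderm and feeder lists reached 80.8 and 63.2 TPM. The mesoderm and neural lists reached 5.95 and 26.8 TPM. At 1 TPM or more in an input were 4 to 6 of the 6 primitive endoderm markers and 2 to 3 of the 5 feeder markers. Of the 4 trophectoderm markers only 1 reached that level, as did 1 of 4 mesoderm and 2 to 3 of 4 neural markers. Whether such other cell types were present, and their part in the results below, was not tested. In bulk RNA fewer cells of a type and less RNA per cell cannot be told apart. The tagged genes themselves were low, at 8.54 to 17.3 TPM for Tet1 and 2.49 to 9.21 TPM for Tet2 over the inputs.

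Sequences of the genes in the main finding are shown first, as description only. The transcripts of Smarca4, Smarcc1 and Smarcc2 rose above their inputs in 1 Tet2 pair, replicate 2, far more than in the other pairs, and Arid1a, the longest member, did so less. Across genes, GAGGAG ranked 1 among 4096 hexamers by the rank correlation of its copies per transcript with that rise, and 6 by copies per kilobase, a choice made after the values had been seen. The lines below give, for these 4 genes, the 60 coding bases within 1 exon that hold most GAGGAG bases, with the hexamer in capitals, 5′ to 3′ on the strand of the transcript, in mm9 (NCBIM37), from the gencode vM1 annotation.
Smarca4, chr9:21505352-21505411, plus strand, exon 32: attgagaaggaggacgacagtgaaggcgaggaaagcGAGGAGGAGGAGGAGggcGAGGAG
Smarcc1, chr9:110059780-110059839, plus strand, exon 7: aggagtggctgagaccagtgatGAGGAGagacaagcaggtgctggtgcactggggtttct
Smarcc2, chr10:127920647-127920706, plus strand, exon 23: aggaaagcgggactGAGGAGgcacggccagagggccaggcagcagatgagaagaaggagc
Arid1a, chr4:133237743-133237802, minus strand, exon 20: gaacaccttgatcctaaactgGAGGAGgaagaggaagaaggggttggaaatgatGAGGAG

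Smarca4 held 5 overlapping copies in this window, Arid1a 2, and Smarcc1 and Smarcc2 1 each. GAGGAG spells consecutive glutamate codons when read in frame, as in the windows of Smarca4, Smarcc2 and Arid1a. In the Smarcc1 window it lies out of frame.

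The scaffold paralogues Smarcc1 and Smarcc2 have related sequences, and reads from one could in principle be counted for the other. The longest run of bases that their transcripts share is shown for that reason. It was 26 bases long, in the coding sequence of both, and 2 words of 25 bases in Smarcc2 (0.0429% of its words) were also found in Smarcc1.
Smarcc1, chr9:110116073-110116098, plus strand, exon 25, and Smarcc2, chr10:127922676-127922701, plus strand, exon 26: caaatgaagaaactagagatcaaact

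Smarca4 and Smarca2 shared at most 20 bases in a row, and Arid1a and Arid1b 29.

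In input, 9 of the 10 subunit transcripts had a median of 27.4 TPM or more, and Smarcc2 stood apart at 6.25 TPM (5.26 to 8.19 over 10 inputs). Actl6a, an actin-related protein bound to the ATPase, was highest with a median of 131 TPM (102 to 170), followed by Smarcb1, a core subunit that contacts the nucleosome, with 112 TPM (88.0 to 225), and Smarcd1, a core subunit that binds transcription factors, with 97.8 TPM (78.2 to 176). Dpf2, a histone-reading PHD finger protein, had 57.4 TPM (44.9 to 110). Smarcd1 exceeded Dpf2 in 10 of 10 inputs, and Dpf2 exceeded Smarca4 in 10 of 10.

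Smarca4 (38.6 TPM, 23.5 to 70.1), Arid1a (34.5 TPM, 23.5 to 96.2) and Smarcc1 (33.7 TPM, 24.8 to 49.1) formed a middle group. These ranges overlapped, and Arid1a was above Smarcc1 in 4 of 10 inputs. Smarce1, an HMG-box subunit that bends DNA, had 28.0 TPM (8.44 to 49.5) and Brd7, a bromodomain protein, 27.4 TPM (7.99 to 47.5). Smarce1 was above Brd7 in 7 of 10 inputs, so the order of these neighbours did not hold in every library.

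The ESC-type members were the higher partner of each paralogue pair in every input. Smarca2, the alternative ATPase, was at 0.218% to 2.80% of Smarca4, and Arid1b at 4.00% to 8.64% of Arid1a. Smarcc2 was at 16.3% to 23.1% of Smarcc1. The Smarcd paralogues were closer, with Smarcd2 at 40.3% to 77.4% and Smarcd3 at 9.02% to 53.5% of Smarcd1.

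The level of the subunits in input did not differ detectably between Tet2 and Tet2dRBD cells. At an adjusted p under 0.05, the quasi-likelihood test of edgeR on counts called 0 of 10 members, against 0.0% of 13310 genes tested. At an unadjusted p under 0.05, edgeR had 340 genes over all and 0 members. The members' median fitted difference was -0.13 on the log2 scale (all genes -0.04). DESeq2 and limma also called 0 members, with 16 and 3 genes over all.

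**Figure D1:**
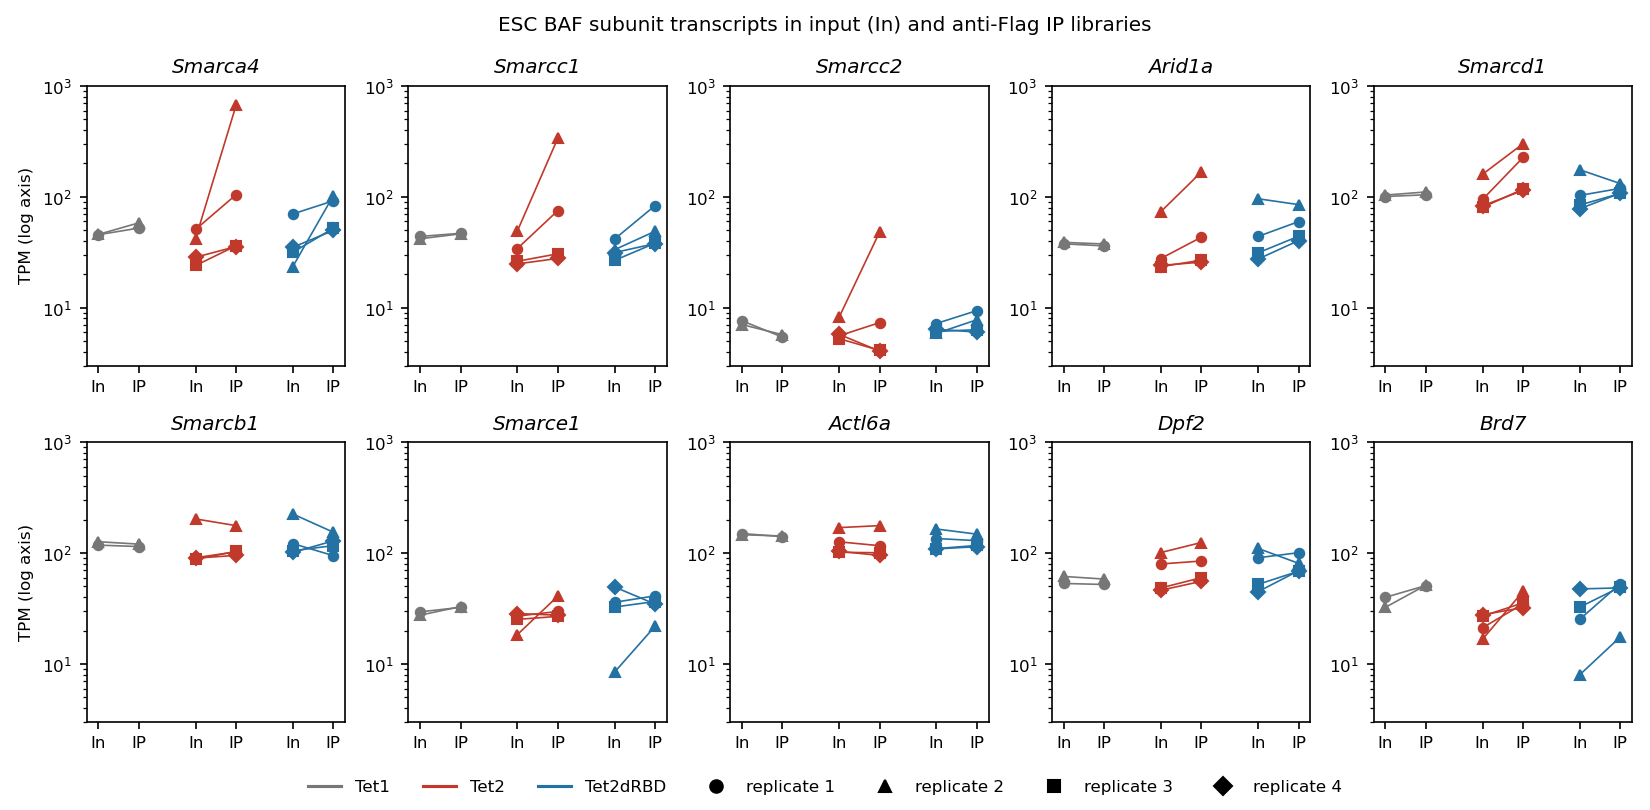
TPM on a log axis of the 10 transcripts in input (In) and IP libraries of Tet1, Tet2 and Tet2dRBD cells. Each line joins the input and IP of 1 replicate, and the marker shape gives its number. The steepest lines are those of Smarca4, Smarcc1 and Smarcc2 in Tet2 replicate 2, where IP reached 672, 339 and 48.2 TPM.

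The ATPase Smarca4 was the member with the largest single rise. In the 4 Tet2 pairs it had 105, 672, 36.2 and 35.6 TPM in IP and 50.8, 42.1, 24.04 and 28.5 TPM in input. The IP of replicate 2 was 6.42 times the highest of the other IP libraries, while its input was 1.48 times the median of the others. The ranges of IP and input overlapped over the 4 replicates.

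The log2 ratio of IP to input, from TPM + 1, was 1.03, 3.96, 0.57 and 0.31 for Smarca4 in Tet2, with a mean of 1.47 ± 1.69 (SD, n = 4). In Tet2dRBD it was 0.39, 2.08, 0.70 and 0.49, from IP values of 92.1, 103, 52.0 and 49.8 TPM and inputs of 70.1, 23.5, 31.6 and 35.1 TPM. Replicate 2 was again the highest of 4, but here its input was the lowest and its IP was only 1.11 times the next IP. In Tet1 the 2 ratios were 0.19 and 0.34, from 52.3 and 58.3 TPM in IP against 45.6 and 45.8 TPM in input.

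The scaffold Smarcc1 shared the rise in Tet2 replicate 2. Its Tet2 IP values were 75.2, 339, 30.6 and 27.8 TPM against inputs of 34.2, 49.1, 26.2 and 24.8 TPM, giving log2 ratios of 1.12, 2.76, 0.22 and 0.16 (mean 1.06 ± 1.21, SD, n = 4). In Tet2dRBD, IP was 83.4, 48.9, 38.2 and 37.9 TPM against 41.6, 33.3, 26.7 and 31.5 TPM, and the ratios were 0.99, 0.54, 0.50 and 0.26. Replicate 2 did not stand out for Smarcc1 in Tet2dRBD, where replicate 1 was highest. The Tet1 ratios were 0.09 and 0.14.

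Its paralogue Smarcc2 showed the same single rise from a much lower level. Tet2 IP held 7.33, 48.2, 4.12 and 4.06 TPM against inputs of 5.58, 8.19, 5.26 and 5.75 TPM, and the log2 ratios were 0.34, 2.42, -0.29 and -0.42. Smarcc2 was thus below input in replicates 3 and 4 and above it in replicates 1 and 2. It stood at 14.2% of Smarcc1 in the IP of replicate 2 and at 16.7% in the paired input, so both scaffolds rose by a similar factor. In Tet2dRBD its ratios were 0.34, 0.36, 0.05 and -0.07, and in Tet1 they were -0.42 and -0.26.

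Arid1a, the DNA-binding subunit of canonical BAF, was high in both libraries of Tet2 replicate 2. IP held 43.2, 167, 26.8 and 25.8 TPM and input 27.8, 73.4, 23.5 and 24.1 TPM, with log2 ratios of 0.62, 1.18, 0.19 and 0.10. The input of replicate 2 was 3.05 times the median of the other inputs, and 3.08 times in Tet2dRBD. In Tet2dRBD the ratios were 0.44, -0.17, 0.48 and 0.54, with replicate 2 the only pair below 0, and in Tet1 they were -0.06 and -0.05.

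The core subunit Smarcd1 was above input in all 4 Tet2 pairs without a rise particular to replicate 2. IP held 227, 301, 117 and 114 TPM against 94.8, 160, 80.3 and 83.1 TPM, and the log2 ratios were 1.25, 0.91, 0.54 and 0.45 (mean 0.79 ± 0.36, SD, n = 4). In Tet2dRBD they were 0.21, -0.41, 0.34 and 0.46 (mean 0.15 ± 0.39, SD, n = 4), and in Tet1 0.05 and 0.09. The lowest Tet2 ratio and the highest Tet2dRBD ratio were nearly equal.

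Smarcb1 and Actl6a, both abundant, stayed near their inputs in Tet2 by TPM ratio. Smarcb1 had ratios of 0.17, -0.20, 0.24 and 0.08 in Tet2, with its lowest value in replicate 2, where input (203 TPM) and IP (177 TPM) were both the highest of the line. Its Tet2dRBD ratios spread more widely, at -0.36, -0.54, 0.15 and 0.34 (SD 0.42, against 0.19 in Tet2), again with replicate 2 lowest. Actl6a ranged from -0.12 to 0.06 in Tet2 and from -0.15 to 0.09 in Tet2dRBD, the narrowest span of the 10 members in Tet2.

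Smarce1 and Brd7 had high ratios in replicate 2 with a low input beside them. For Smarce1 the Tet2 ratios were 0.13, 1.11, 0.09 and -0.05, and its inputs 27.0, 18.4, 25.2 and 28.5 TPM. The Tet2 IP of replicate 2, 40.9 TPM, was also the highest of that line, at 1.375 times the next. In Tet2dRBD the ratios were 0.19, 1.28, 0.16 and -0.50, and the input of replicate 2 was 8.44 TPM against 32.6 to 49.5 TPM in the others. Its IP in that pair, 21.9 TPM, was the lowest of the 4 Tet2dRBD IP libraries, so the high ratio there came with a low input and not with a high IP.

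Brd7 was above input in every pair of every line. Its Tet2 ratios were 0.69, 1.38, 0.39 and 0.21, its Tet2dRBD ratios 1.04, 1.04, 0.59 and 0.03, and its Tet1 ratios 0.35 and 0.65. The replicate 2 inputs were the lowest of both lines, at 16.7 TPM in Tet2 and 7.99 TPM in Tet2dRBD. The replicate 2 IP was the highest of the line in Tet2, with 45.2 TPM or 1.27 times the next. In Tet2dRBD it was the lowest, with 17.5 TPM.

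Dpf2 rose little in Tet2, with ratios of 0.09, 0.30, 0.30 and 0.26 from inputs of 79.8, 101, 48.5 and 46.3 TPM. In Tet2dRBD they were 0.15, -0.44, 0.39 and 0.61, and in Tet1 -0.03 and -0.08.

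**Figure D2:**
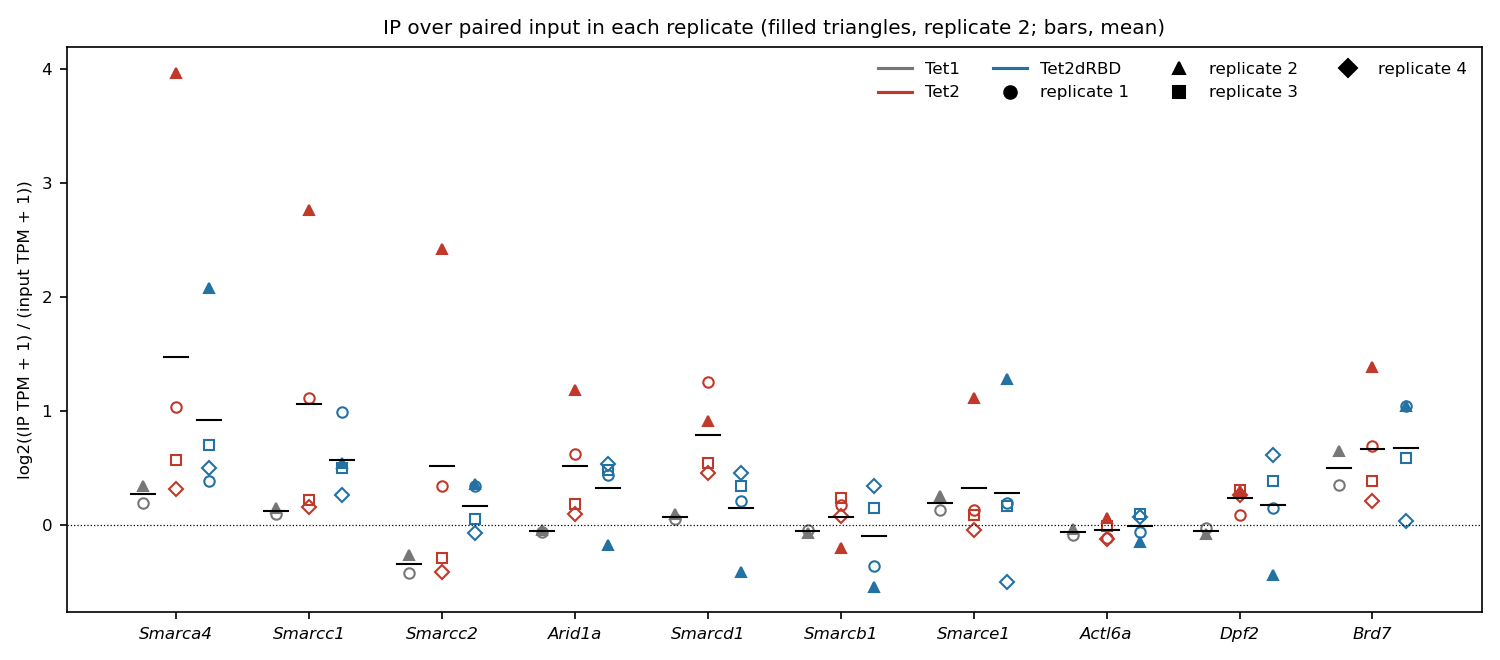
Log2 ratio of IP to paired input, from TPM + 1, for each member and line. Filled triangles are replicate 2, other symbols the other replicates, and short black bars the mean of 2 (Tet1) or 4 (Tet2, Tet2dRBD) pairs. Smarca4, Smarcc1 and Smarcc2 lie at 3.96, 2.76 and 2.42 in Tet2 replicate 2, away from their other Tet2 pairs.

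Whether the rise of Smarcc1 in Tet2 replicate 2 was shared by other subunits was asked through the excess, defined as the log2 ratio of replicate 2 minus the highest ratio of replicates 1, 3 and 4. An excess of at least 1 was counted. A single pair is no group, so no test was made. Smarcc1, whose rise prompted the question, had an excess of 1.65 in Tet2 and is no evidence on it. Of the other 9 members, 2 had such an excess, Smarca4 (2.94) and Smarcc2 (2.08), against 3.73% of the 11784 genes that averaged 1 TPM or more in input, called expressed genes below. Smarca4 and Smarcc2 lay at percentiles 99.9 and 99.5 of those genes. The members nearest to the limit were Smarcc1 on the inside and Smarce1 (0.98) on the outside.

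The other 7 members were spread over the range of all genes. Brd7 had an excess of 0.70 and Arid1a of 0.56, whereas Actl6a (0.07), Dpf2 (0.00), Smarcd1 (-0.34) and Smarcb1 (-0.44) had none to speak of. The median of the 10 was 0.63, beside 0.00 over all genes, and replicate 2 was the highest pair for 7 of 10 members and 49.8% of all genes. Both values include Smarcc1, whose rise prompted the question, and are given as description only. Beside Smarcc1, the ATPase and the other scaffold had the rise, and 7 of the 10 subunits did not reach it.

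In Tet2dRBD, 2 of 10 members had an excess of at least 1, Smarca4 (1.38) and Smarce1 (1.09), against 2.1% of all genes. Smarcc1 (-0.45) and Smarcc2 (0.01) did not. The median of the members was -0.35, and that of all genes -0.41. When the IP of each replicate was set against the mean input of the line in place of its own input, 0 members remained in Tet2dRBD, whereas in Tet2 Smarca4, Smarcc1 and Smarcc2 did and Arid1a joined them. The share of all genes under this measure is not given here, so these counts do not set the members apart from other genes.

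The Tet2 replicate 2 pair differed from the others over all genes as well. The SD of the log2 ratio over genes was 0.75 there and 0.45 to 0.67 in the other 9 pairs, and 17.2% of expressed genes had a log2 ratio of at least 1, against 1.78% to 10.8%. Of the 10 members, 6 had a ratio of at least 1 in that pair. The 4 libraries of replicate 2 were also the deepest, at 36.0 to 37.6 M expected counts, and the part of depth in the excess was not tested. By the numbering of the deposited data, replicate 1 of both Tet2 lines, replicate 2 of both, and the remaining libraries with Tet1 form 3 sets, a reading that the labels do not state.

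**Figure D3:**
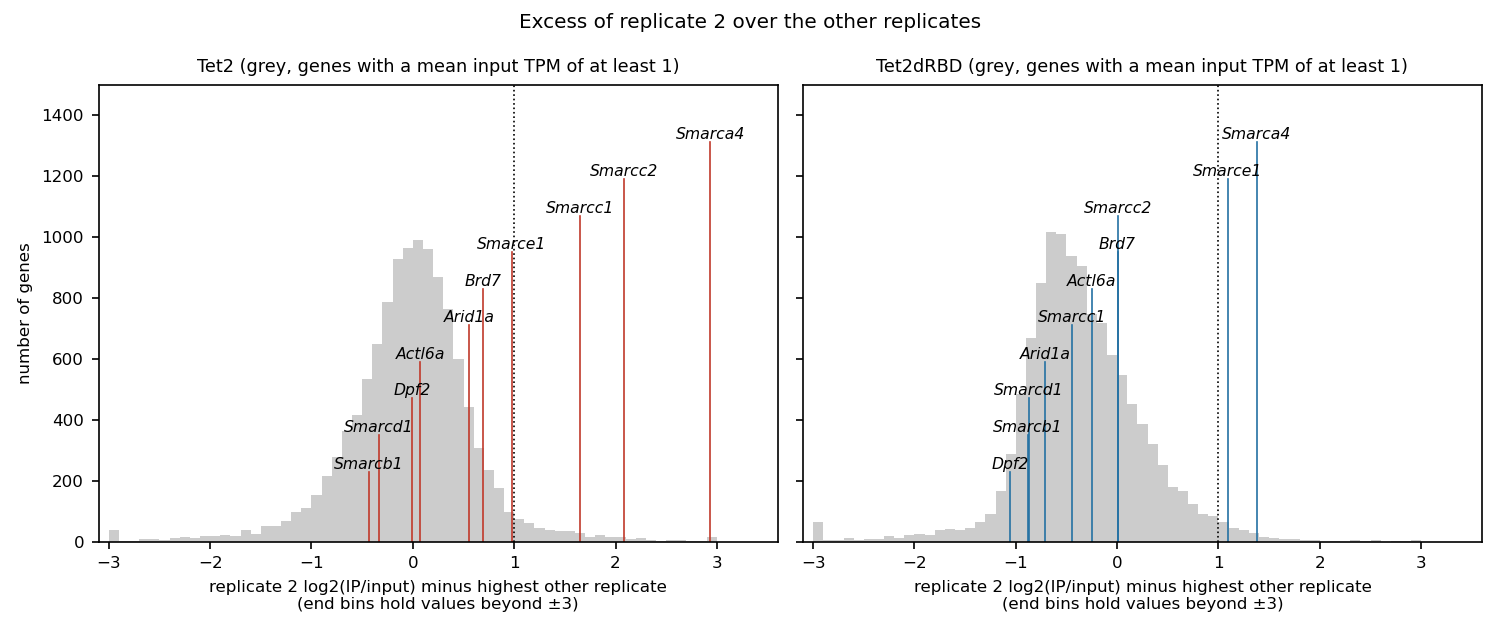
Excess of replicate 2 (log2 ratio of replicate 2 minus the highest of the other 3 pairs) over expressed genes, as grey bars counting genes, in Tet2 (left) and Tet2dRBD (right). Vertical lines mark the 10 members, with heights chosen only to separate the names, and the dotted line marks an excess of 1. In Tet2, Smarca4, Smarcc2 and Smarcc1 lie beyond it, and in Tet2dRBD Smarca4 and Smarce1.

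The 3 members with the excess in Tet2 were among the 4 longest transcripts. The length that the files give was 8175 bases for Arid1a, 6370 for Smarca4, 5673 for Smarcc1 and 4792 for Smarcc2, and at most 3153 for the other 6. Across 11281 genes with a transcript in the annotation, the excess in Tet2 went with length (Spearman rho 0.49, a description over genes of the same libraries) and not with GC content (rho 0.00). In Tet2dRBD the correlation with length was -0.14 and that with GC content -0.28.

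By length class, the members lay as follows. Among genes of 4000 to 6000 bases, where Smarcc1 and Smarcc2 lie, 6.04% had an excess of at least 1 in Tet2, and among those of 6000 to 8000 bases, where Smarca4 lies, 7.69%. The median excess of these classes was 0.26 and 0.36. Arid1a, with 0.56, was close to the median of 0.44 for genes of 8000 bases or more.

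Smarca4 was also rich in GAGGAG, with 25 overlapping copies against a median of 2 over the 11281 transcripts, counted on the strand of the transcript only. Arid1a had 8, Smarcc2, Smarcd1 and Smarce1 5 each, Smarcc1 3, Dpf2 and Brd7 2 each, Actl6a 1 and Smarcb1 0. The hexamer occurred in 80.4% of transcripts, and 0.168% had at least as many copies as Smarca4. By copies per kilobase, 1.76% were at or above Smarca4. Longer transcripts hold more copies, and the rank correlation with the Tet2 excess fell from 0.37 for copies per transcript to 0.16 for copies per kilobase. Among genes of 4000 to 9000 bases, 19.9% of those with 10 or more copies had an excess of at least 1, against 6.67% of those with 4 to 9, the class of Smarcc2 and Arid1a, and 2.78% of those with up to 3, the class of Smarcc1. The hexamer was chosen for its correlation over these same genes, so these shares restate that choice and support nothing further.

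TCTCTC was chosen because the study describes a UC-rich motif. The study found that motif at the centres of hydroxymethylated RNA sites, mostly in introns, and among Tet-bound targets within such sites. Here TCTCTC was counted over whole spliced transcripts and set against the excess. Its counts are therefore no check of the motif at those sites. Over the members, TCTCTC showed another order than GAGGAG. Smarcc1 had 8 copies, Arid1a and Dpf2 3 each, Smarca4 and Smarcc2 1 each and the other 5 members 0, against a median of 1 and an occurrence in 55.6% of transcripts. Its rank correlation with the Tet2 excess was 0.22 for copies per transcript, rank 1131 of the 4096 hexamers. For copies per kilobase it was 0.095, rank 1978.

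**Figure D4:**
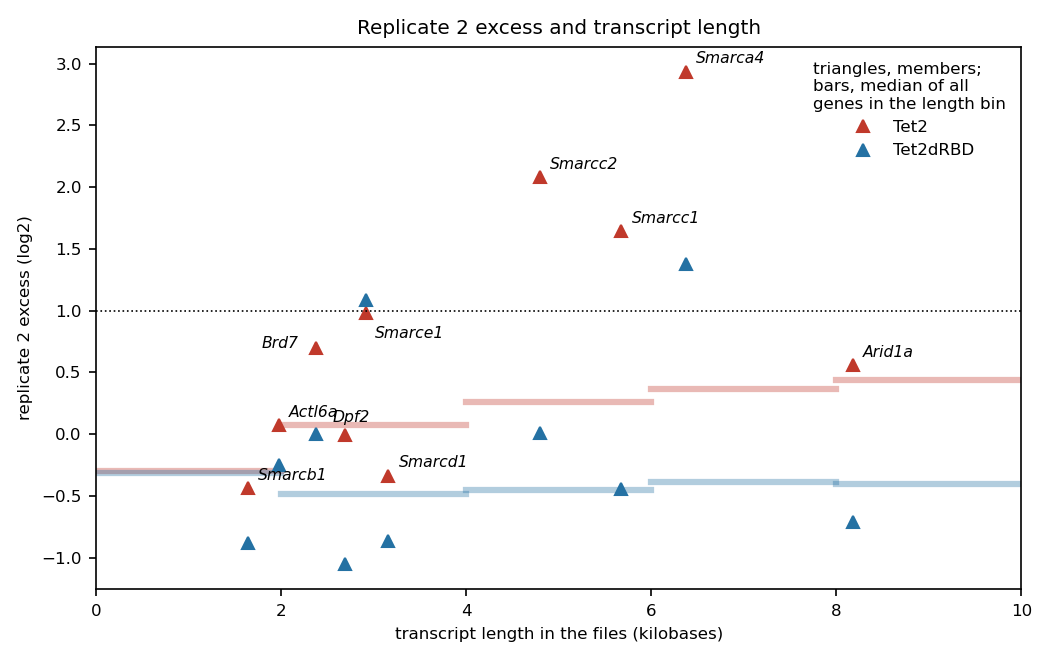
Excess of replicate 2 (log2) against transcript length in kilobases for the 10 members in Tet2 (red triangles, named) and Tet2dRBD (blue triangles). Pale horizontal bars give the median of all genes in each length class, and the dotted line marks an excess of 1. In Tet2 the medians rise from -0.30 below 2 kilobases to 0.44 from 8 kilobases, and Smarca4, Smarcc2 and Smarcc1 lie well above them.

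A transcript was next counted where IP exceeded the paired input in every replicate of a line. In Tet2, 6 of 10 members passed, namely Smarca4, Smarcc1, Arid1a, Smarcd1, Dpf2 and Brd7, against 47.0% of expressed genes, and 0 were below input in every pair, against 13.4%. In Tet2dRBD 3 of 10 passed, Smarca4, Smarcc1 and Brd7, against 31.0%, and 0 were below throughout, against 9.57%. In Tet1 5 of 10 passed, Smarca4, Smarcc1, Smarcd1, Smarce1 and Brd7, against 50.5%, and the other 5 were below input in both pairs (32.3% of genes). Smarca4, Smarcc1 and Brd7 passed in all lines. The shares of the members were near those of all genes, and without replicate 2 or replicate 4 of Tet2dRBD the count there was 6 or 5. Leaving out a pair loosens the rule for every gene, and the share of all genes is not given for these counts.

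The test of IP against input used edgeR on counts with each pair as a block. Its TMM scale sets the bulk of genes to 0, whereas the TPM ratios above have a median over genes above 0, and the 2 scales differed by 0.13, 0.27 and 0.24 on the log2 scale in Tet1, Tet2 and Tet2dRBD. In Tet2, 2 of 10 members were called, against 33.1% of 13710 genes. Of these, 1 was higher in IP, Smarcd1 (0.48 ± 0.13 SE, edgeR adjusted p = 0.020), against 14.6% of genes called higher, and 1 was lower, Actl6a (-0.37 ± 0.09 SE, edgeR adjusted p = 0.010), against 18.5%. The direction of Actl6a is that of the TMM scale: on the TPM scale its mean log2 ratio was -0.05 ± 0.09 (SD, n = 4) and limma did not call it (adjusted p = 0.64).

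The members with the largest ratios did not pass in edgeR in Tet2. Smarca4 had a fitted difference of 1.07 ± 0.51 (SE, edgeR adjusted p = 0.13) and Smarcc1 of 0.74 ± 0.32 (SE, edgeR adjusted p = 0.096). Without replicate 2 of both Tet2 lines, an alternative chosen after seeing the data, Smarca4 had a smaller but tighter difference of 0.39 (edgeR adjusted p = 0.023). DESeq2 called Smarcc1 (0.75, adjusted p = 0.035) beside Smarcd1 and Actl6a, 3 members and 4919 genes over all, where edgeR called 4540. limma on log2(TPM + 1) called 5 members higher and 0 lower, Smarca4, Smarcc1, Arid1a, Smarcd1 and Brd7, with 5914 genes over all.

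The call of Smarcd1 was lost with replicates 3 and 4 summed (0.52, edgeR adjusted p = 0.053), without the pairs as a block (0.51, adjusted p = 0.37) and without Tet2 replicate 1 (0.39, adjusted p = 0.080), and that of Actl6a without the block (-0.38, adjusted p = 0.34) and without Tet2 replicate 1 (-0.28, adjusted p = 0.11). Over the 10 members the median fitted difference in Tet2 was 0.20, and 0.00 over all genes.

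In Tet2dRBD, 1 of 10 members was called, against 19.5% of genes. This was Actl6a, lower in IP (-0.29 ± 0.09 SE, edgeR adjusted p = 0.042), where 12.1% of genes were lower and 7.4% higher. DESeq2 did not call it (adjusted p = 0.061), and the call was lost when any pair other than Tet2 replicate 2 was left out (edgeR adjusted p = 0.058 to 0.21). limma on log2(TPM + 1) called Brd7 higher in its place (0.67, adjusted p = 0.031), as did edgeR without Tet2dRBD replicate 4, which also called Smarcb1 lower. Smarca4 (0.64 ± 0.49 SE) and Brd7 (0.43 ± 0.20 SE) had adjusted p of 0.37 and 0.15 in edgeR. In Tet1, edgeR called 0 of 10 members, against 5.9% of genes (2.72% higher, 3.18% lower), and 0 had an unadjusted p under 0.05. DESeq2 and limma called 0 as well.

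The Tet2dRBD line serves to ask whether the RNA-binding domain of Tet2 is needed for recovery of a transcript. When the IP effect in Tet2dRBD was subtracted from that in Tet2, edgeR called 0 of 10 members and 0.0219% of 13710 genes, with 416 genes and 1 member under an unadjusted p of 0.05. DESeq2 called 29 genes and limma 4, with 0 members among them. That member was Smarcd1, with a difference of 0.60 ± 0.19 (SE, unadjusted p = 0.0086, edgeR adjusted p = 1.0), higher in Tet2 at replicates 1, 2 and 3. For Smarca4 the difference was 0.43 ± 0.71 (SE) and for Smarcc1 0.43 ± 0.44 (SE), both with an edgeR adjusted p of 1.0. Without Tet2 replicate 2 both changed sign, to -0.25 and -0.065. A difference was not detectable for the members with this spread, which does not show that the lines act alike.

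**Figure D5:**
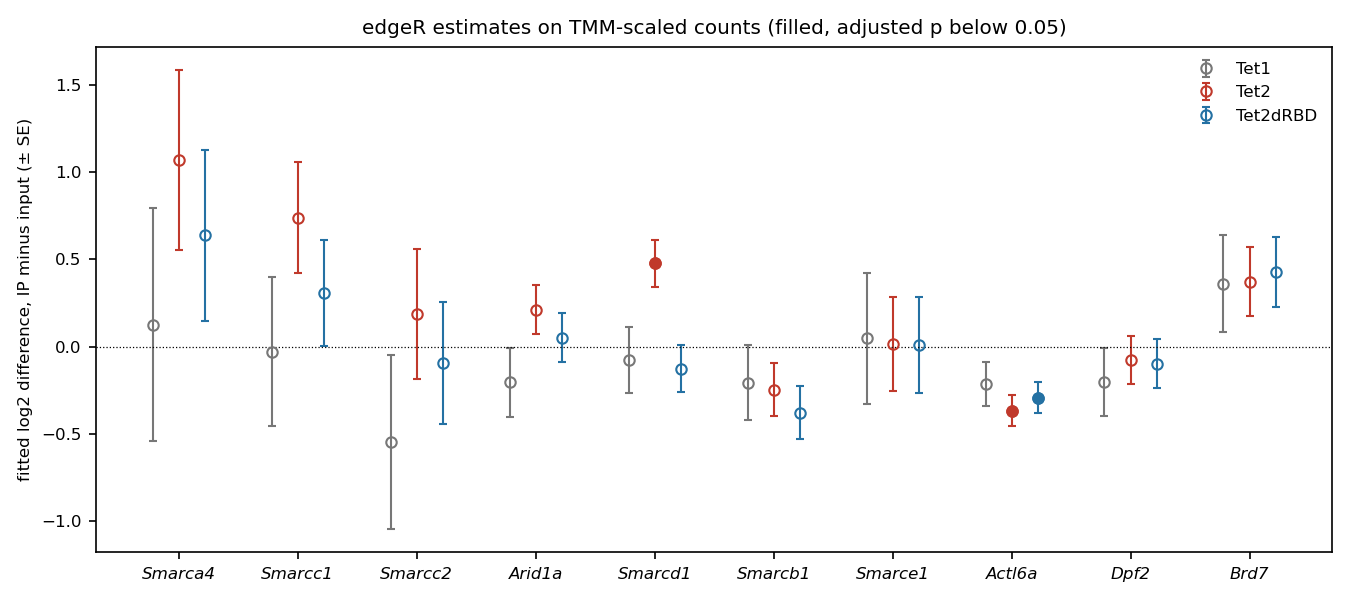
Fitted log2 difference between IP and input (points) with its standard error (bars) from edgeR on TMM-scaled counts, for each member in Tet1 (grey), Tet2 (red) and Tet2dRBD (blue). Filled points have an adjusted p below 0.05, namely Smarcd1 in Tet2 and Actl6a in Tet2 and Tet2dRBD. The bars of Smarca4 are the longest within each of the 3 lines.

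Of 19 related SWI/SNF genes outside the list, 18 were found in the data and edgeR tested 16. In Tet2 it called 3 higher (Phf10, Arid2 and Smarca2) and 3 lower (Smarcd3 and, outside the naming rule and named after their values were seen, Bcl7b and Actb), 6 of 16 beside 33.1% of all genes. In Tet2dRBD it called 2 higher (Phf10 and Arid2) and Actb lower, 3 of 16 beside 19.5%. The median fitted difference of these 16 was 0.04 in Tet2 and 0.07 in Tet2dRBD, and the shares of calls were near those over all genes. Phf10, a PBAF subunit with PHD fingers, was higher in IP in Tet1 (1.27 ± 0.32 SE, edgeR adjusted p = 0.046), Tet2 (1.24 ± 0.23 SE, adjusted p = 0.0029) and Tet2dRBD (1.14 ± 0.23 SE, adjusted p = 0.0087). Its log2 ratio was above 1 in all but 1 pair, from 0.54 to 2.27.

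Arid2, the PBAF counterpart of Arid1a, was higher in Tet2 (0.57 ± 0.14 SE, edgeR adjusted p = 0.0095) and Tet2dRBD (0.59 ± 0.14 SE, adjusted p = 0.015). Pbrm1, the polybromo subunit of PBAF, had 0.51 ± 0.24 (SE, edgeR adjusted p = 0.13) in Tet2. Phf10, Arid2, Pbrm1 and Brd9 were above input in every pair of every line, as Brd7, Smarca4 and Smarcc1 were. In single lines 31.0% to 50.5% of expressed genes passed this rule, and the share passing in all lines is not given here.

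Smarca2 was called higher in Tet2 (2.58 ± 0.67 SE, edgeR adjusted p = 0.014) from a very low level, with inputs of 0.75, 0.47, 0.20 and 0.09 TPM and IP values of 4.26, 8.18, 0.20 and 0.40 TPM. IP exceeded input in replicates 1, 2 and 4 and equalled it in replicate 3, and the values of replicates 3 and 4 rest on 4 to 21 counts. Smarcd3 was called lower in Tet2 (-0.33 ± 0.11 SE, edgeR adjusted p = 0.043), although its mean TPM ratio was -0.01 on the log2 scale.

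The replicate 2 rise reached some of these genes. Brd9, the bromodomain subunit of the noncanonical ncBAF assembly, had 35.4 TPM in Tet2 IP replicate 2 against 9.88 to 11.1 TPM in the other Tet2 IP libraries, an excess of 1.48. Gltscr1, another ncBAF subunit, outside the naming rule and chosen after its values were seen, had an excess of 1.84. Among the 15 expressed genes of this list, these were the 2 with an excess of at least 1, and their median was 0.21. In the ISWI, INO80 with SRCAP, and CHD with NuRD remodeller lists, 0 of 9, 0 of 14 and 5 of 17 genes had it, beside 3.73% of expressed genes. The share in the CHD with NuRD list, 29.4%, was close to the 30% of the 10 members, Smarcc1 included. The rise was thus not particular to the BAF list.

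The genes whose ratios over the 10 pairs were most like the mean of Smarca4 and Smarcc1 were Ppfia1, Bcor, Hdgfrp2, Txlna and Ezr, with Pearson's r of 0.993 to 0.996 among 8467 genes that averaged 5 TPM or more in input. Their ratios in Tet2 replicate 2 were 2.76, 1.57, 2.18, 3.13 and 1.90. Over the 9 pairs without it, r was 0.960 to 0.978. Among members not in that mean, Smarcc2 came closest (r = 0.99, and 0.90 over 9 pairs), followed by Brd7 (0.79), Smarce1 (0.73) and Arid1a (0.71), and Arid1a fell to 0.15 over 9 pairs. Smarcb1 was lowest at -0.39. Pairs of 1 line share that line, and r over the pairs is a description.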

How the data were processed

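RIP-Seq of Flag-tagged Tet1, Tet2 and Tet2dRBD in mouse ESCs was analysed in 20 libraries. The authors removed low-complexity reads and, with Bowtie2, those of rRNA and tRNA, trimmed with Trimmomatic and quantified genes with RSEM on mm9 and the RefSeq transcriptome, with versions not given in the sources used here. They deposited expected counts, which are not normalized, lengths, and TPM to which a pseudocount of 1 had been added. The deposited FPKM values were not used. TPM here is the deposited value minus 1. RSEM divides reads shared between genes, and whether counting used strand is not stated.

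Groups and replicate numbers came from the labels. Log2 ratios used TPM + 1 of IP over the input of the same number. Expected counts were rounded and tested with edgeR 4.0.16 in R 4.3.3 (TMM, quasi-likelihood, genes with 1 CPM in at least 2 libraries, Benjamini-Hochberg over all genes), with 1 block per pair and an IP effect per line in a single fit of the 20 libraries, and with line as the only term for the 10 inputs. DESeq2 1.42.0 and limma 3.58.1 were alternatives, and the tests were checked on simulated data. The numbers paired the samples: same-numbered IP and input deviated together from their group means with correlations of 0.58 to 0.86 in Tet2 and Tet2dRBD and 0.18 in Tet1. Replicates 3 and 4 were not told apart by this: Tet2 IP replicate 4 correlated at 0.78 with input 3 and 0.76 with its own, and Tet2dRBD IP replicate 4 at 0.69 and 0.58. Inputs of the same number in Tet2 and Tet2dRBD correlated at 0.69 to 0.88. Counts of replicates 3 and 4 differed by a chi-square per gene of 2.79 to 17.1 and those of the Tet1 replicates by 7.91 and 8.04, where sampling noise gives about 1 and other replicates gave 140 to 558, and all were kept as separate samples.

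Genes named are the 10 members, 8 other SWI/SNF genes, 5 genes like Smarca4 and Smarcc1 in pattern, and Tet1 and Tet2, with Gltscr1, Bcl7b and Actb outside this rule. Members and lists were chosen with earlier results of these data known. Transcripts were those of gencode vM1 nearest in length to the files' value, which for Brd7 (3625 against 2370 bases) and Dpf2 (2406 against 2690) differ. The hexamer GAGGAG was chosen after seeing the data, after ranking 4096 hexamers by their correlation with the excess.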

Additional observations from a re-analysis of the deposited data

Results flagged for a closer look

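In 60 groups of 4 values for the 10 members (TPM in IP, TPM in input and log2 ratio, in Tet2 and Tet2dRBD), 12 had a highest or lowest sample whose gap to the next was above Dixon's critical value. For independent values, chance flags about 1 in 20 groups. That rate need not hold here. The IP, input and ratio groups of 1 gene are linked, and some replicates were far more alike than others. The share of all genes with such flags is not given here, so the count does not set the members apart from other genes. All 12 flagged samples were replicate 2, and the causes of the flags were not tested.

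In Tet2 IP, replicate 2 stood apart as the highest for Smarca4 (672 TPM), Smarcc1 (339 TPM), Smarcc2 (48.2 TPM), Arid1a (167 TPM) and Smarcb1 (177 TPM). In Tet2 input it did for Smarcc2 (8.19 TPM), Arid1a (73.4 TPM) and Smarcb1 (203 TPM), and in Tet2dRBD input for Smarcb1 (225 TPM). Brd7 had its lowest Tet2dRBD IP value there (17.5 TPM). Of the log2 ratios, Smarce1 was highest in Tet2 (1.11) and Arid1a lowest in Tet2dRBD (-0.17). The log2 ratios of Smarca4, Smarcc1 and Smarcc2 did not pass this limit, because replicate 1 also lay above replicates 3 and 4.

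Both Tet1 pairs of Arid1a and Dpf2 lay below input and all 4 Tet2 pairs above it. The difference of the mean log2 ratios, Tet1 minus Tet2, was -0.57 for Arid1a and -0.29 for Dpf2, and was not tested. The median ratio over expressed genes was itself 0.05 and 0.11 in the Tet1 pairs and 0.12 to 0.38 in the Tet2 pairs. The share of all genes with such a separation is not given here. On the TMM scale Dpf2 was below input in both lines (-0.20 in Tet1, -0.08 in Tet2), and Arid1a had -0.20 and 0.21.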

How the results depend on the processing

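The groups held 2 or 4 libraries, and the lowest member count in a library was 354. In Tet2, the count of members called (2, with 4540 genes over all) became 5 with limma on log2(TPM + 1) or log2(TPM + 0.1) (5914 and 5933 genes), 3 with DESeq2 (Smarcc1 gained, 4919 genes), 3 without replicate 2 of both Tet2 lines (Smarca4 gained, 5217 genes), 0 without the replicate block (375 genes) and 1 with replicates 3 and 4 summed (Smarcd1 lost, 3190 genes). In Tet2dRBD the count (1, with 2674 genes over all) became 0 with DESeq2, without the filter on low counts, without the replicate block (46 genes), on libraries of this line only and with replicates 3 and 4 summed, and 2 without replicate 2 of both Tet2 lines (Actl6a and Smarce1, both lower). In Tet1 the count (0, with 809 genes over all) became 7 on libraries of this line only, where 6985 genes were called. Leaving out single pairs gave 0 to 2 members called in Tet2, 0 to 2 in Tet2dRBD and 0 in Tet1. For the difference between the IP effects and for the inputs the count was 0 under every alternative run, with the replicate block across lines among them, though DESeq2 called 29 and 16 genes where edgeR called 3 and 0.

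Members above input in every pair numbered 0 in each line when IP had to be at least 1.5 times input. That rule is stricter for every gene, and its share over all genes is not given here. Comparing means without the replicate block gave 8 members in Tet2dRBD in place of 3 (12754 genes in place of 4625, of all 23284) and 9 in Tet2 in place of 6 (13060 in place of 6659). Leaving out single pairs gave 6 to 7 in Tet2, 3 to 6 in Tet2dRBD and 5 in Tet1, again without the share over all genes beside it. The count of members with a replicate 2 excess stayed at 3 to 4 in Tet2 under the 8 alternatives run, and in Tet2dRBD it was 1 with a pseudocount of 5 and 0 with the mean input of the line (no replicate block), otherwise 2. The shares of all genes under these alternatives are not given here.

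Of the fitted values of single members, 3 changed sign, all for the difference between Tet2 and Tet2dRBD: Smarca4 (-0.25) and Smarcc1 (-0.065) without Tet2 replicate 2, and Smarcc1 (-0.033) without replicate 2 of both lines, a setting chosen after seeing the data. Over single pairs left out, this difference ranged from -0.25 to 0.86 for Smarca4 and from -0.065 to 0.69 for Smarcc1. The causes were not tested.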
